A study of Rattus norvegicus with 12 samples.

Results

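The serotonin receptors described here are the 10 genes Htr1a, Htr1b, Htr1d, Htr2a, Htr2b, Htr2c, Htr3a, Htr4, Htr6 and Htr7, chosen by name as every non-control probe that the array files give to one of them. They are 10 of the 35623 genes named on the array and take 32 of its 43379 non-control spots, on 14 probes. RNA of the dorsal striatum, punched from frozen sections and pooled within each rat, was measured in 12 male rats, with 1 single-colour array for each rat and 3 rats in each of 4 groups. All 12 rats carried a unilateral lesion of the dopamine neurons of the left substantia nigra made with 9 µg of 6-hydroxydopamine, and no unlesioned rats were on the arrays used here. The 6-OHDA group had the lesion alone. The HFS group also received high frequency stimulation of the subthalamic nucleus on the lesioned side during 5 days (frequency 130 Hz, pulse width 80 µs, current 60 µA). In the DOPA group, rats were given 2 daily injections of L-DOPA (25 mg/kg) with benserazide (12.5 mg/kg), a blocker of its conversion outside the brain, for 19 days. In the DOPA/HFS group both were given, with stimulation in the last 5 of the 19 days. The implanted groups also differ from the other groups by the electrode itself, so stimulation and implantation cannot be told apart.

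Serotonin reaches the striatum from neurons whose cell bodies lie in the raphe nuclei of the brainstem, and the transcripts measured in striatal tissue are mainly those of receptors made by local cells. The receptors fall into families by the signal they pass on: the Htr1 receptors lower cyclic AMP through Gi proteins, the Htr2 receptors activate phospholipase C through Gq proteins, Htr4, Htr6 and Htr7 raise cyclic AMP through Gs proteins, and Htr3a encodes a subunit of a cation channel. After loss of dopamine neurons, serotonin terminals can convert L-DOPA to dopamine, and receptors of this family are studied for that reason in L-DOPA-induced dyskinesia.

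Levels are given as log2 of the background-corrected spot signal after quantile normalization between the 12 arrays, so that a difference of 1 is a 2-fold difference in signal. Between 50.5% and 63.2% of spots were well above background on an array. The third DOPA/HFS array had 4175 spots that the scanner software marked as outliers, against 2 to 25 on the others, and these spots were left out. Of the 10 genes of the striatal projection neuron list with a probe, 9 were well above background on all 12 arrays, and the log2 of the summed signal of these 9 lay between 17.67 and 18.17. Penk was the brightest of them on every array. The sum also holds Pdyn, at 14.53, 14.83 and 14.74 in 6-OHDA and at 16.09, 16.21 and 15.98 in DOPA, so it is not free of differences between the groups. Each of 3 slides held 1 array of each group, with the replicate number standing for the slide. Within a slide, each group always had the same position, so position and treatment cannot be told apart. In tissue RNA of this kind, fewer cells of a type and less RNA for each cell cannot be told apart.

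Of the 10 receptors, 7 passed the filter on dim signal (well above background on at least a share of 0.4 of the arrays) and were tested. Htr1d, Htr2a, Htr2c, Htr3a, Htr6 and Htr7 had a probe that was above background on all 12 arrays. Htr1b was above background on 11 arrays, the second 6-OHDA array being the exception. Htr1a, Htr2b and Htr4 were above background on 0 of 12 arrays.

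**Figure D1:**
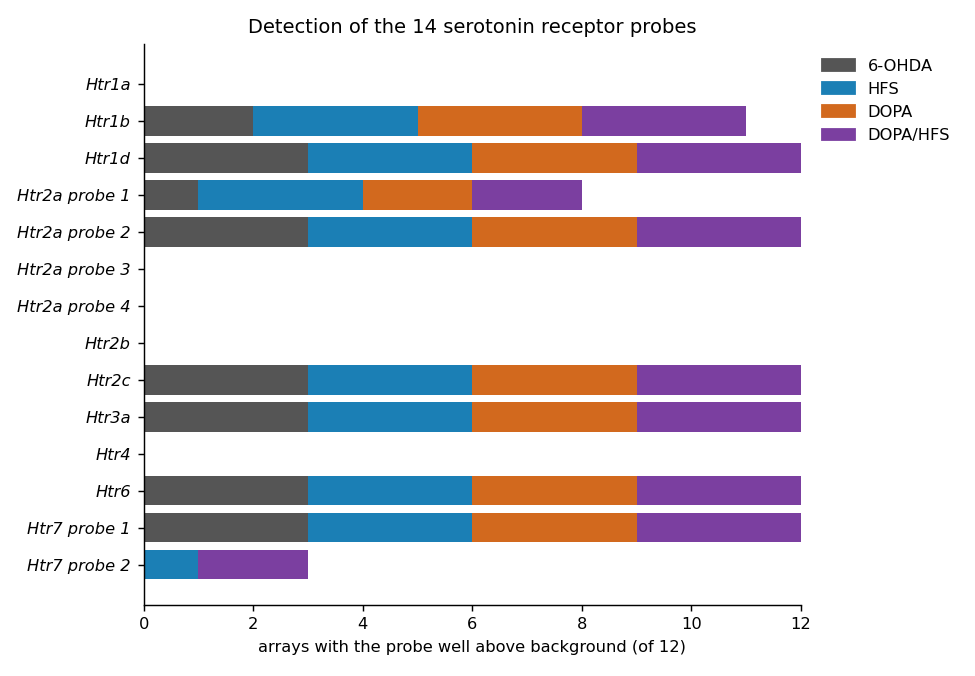
Number of arrays, of 12, on which each of the 14 receptor probes was well above background, with the colour giving the group. Bars of length 12 belong to 6 receptors, the Htr1b bar stops at 11, and Htr1a, Htr2b, Htr4 and 2 of the 4 Htr2a probes have no bar.

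Htr1a, Htr2b and Htr4 therefore had no level that could be compared. Htr1a, the autoreceptor of raphe neurons that is also made by hippocampal and cortical neurons, was read by 10 spots of 1 probe, with mean log2 signals from 2.71 to 3.52 over the 12 arrays. Htr2b, best known from peripheral tissues, lay between 2.39 and 3.63. Htr4, a Gs-coupled receptor, lay between 2.58 and 3.46. On each array the lowest signal among probes well above background was between 4.03 and 5.71, so these values only set an upper bound on the signal of these probes.

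Htr1b encodes a Gi-coupled receptor of axon terminals, where it restrains transmitter release, and striatal projection neurons are among the cells known to make it. The bases ahead of its RefSeq gene start on the GRCr8 assembly, chr8:91414816-91415065 on the minus strand, are shown because Htr1b had the largest differences from 6-OHDA among the 7 tested receptors. The capitals mark the CCAAT box, found here on the opposite strand as ATTGG.

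Htr1b: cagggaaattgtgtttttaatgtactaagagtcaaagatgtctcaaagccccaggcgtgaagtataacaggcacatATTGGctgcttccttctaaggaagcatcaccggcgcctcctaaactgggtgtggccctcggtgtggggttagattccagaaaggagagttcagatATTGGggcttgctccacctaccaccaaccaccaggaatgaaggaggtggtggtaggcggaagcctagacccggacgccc

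The log2 signal of Htr1b was 5.87, 4.1 and 5.88 on the 3 6-OHDA arrays. It was 5.62, 5.57 and 6.13 with HFS, 6.48, 6.12 and 6.32 with DOPA, and 6.12, 5.97 and 6.61 with DOPA/HFS. All 3 DOPA arrays and all 3 DOPA/HFS arrays thus lay above every 6-OHDA array, whereas the HFS arrays overlapped with them. The low 6-OHDA value of 4.1 was the one that was not well above background, on an array where the lowest signal counted as such was 5.12. In order, the group means were 6.31 ± 0.18 in DOPA, 6.23 ± 0.33 in DOPA/HFS, 5.77 ± 0.31 in HFS and 5.28 ± 1.02 in 6-OHDA (SD, n = 3), and each group overlapped with its neighbour in this order.

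In limma, Htr1b was higher in DOPA than in 6-OHDA by 1.02 on the log2 scale (SE 0.41, fold 2.03, 95% interval of the difference 0.12 to 1.93), with an unadjusted p of 0.0294 and an adjusted p of 1. The same comparison within slides gave 0.61, 2.02 and 0.44. For DOPA/HFS against 6-OHDA the difference was 0.95 (SE 0.41, fold 1.93, 95% interval 0.05 to 1.85), with a limma p of 0.0403 and an adjusted p of 1, and within slides it was 0.25, 1.87 and 0.73. The exact two-sided permutation test gave p = 0.1 in both comparisons, the smallest that 3 arrays against 3 allow. Both comparisons use the same 6-OHDA arrays.

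Over all arrays, the L-DOPA average effect (the mean of DOPA and DOPA/HFS less the mean of 6-OHDA and HFS) on Htr1b was 0.74 (SE 0.29, fold 1.67, 95% interval 0.11 to 1.38), from 5.53 without to 6.27 with L-DOPA, with a limma p of 0.0263 and an adjusted p of 1. Within slides it was 0.56, 1.21 and 0.46, and the exact permutation test over 6 against 6 arrays gave p = 0.00866, where the smallest possible is 0.00216. With HFS alone the difference was 0.49 (SE 0.41, 95% interval −0.41 to 1.39), with a limma adjusted p of 0.998.

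The size of the Htr1b difference rested on the array where the probe was not above background. Without the second 6-OHDA array it was 0.43 for DOPA and 0.36 for DOPA/HFS (SE 0.23 for both), with unadjusted limma p above 0.05, and 0.45 for the L-DOPA average effect (SE 0.16), with an unadjusted limma p still under 0.05. With the normexp background correction these 3 values were 0.34, 0.32 and 0.27 (SE 0.13, 0.13 and 0.09). That correction added an offset of 50, which shrinks the log2 differences of dim probes, so its values are not on the same scale as the main ones. From the deposited log2 table the 3 values were 0.36, 0.22 and 0.22.

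**Figure D2:**
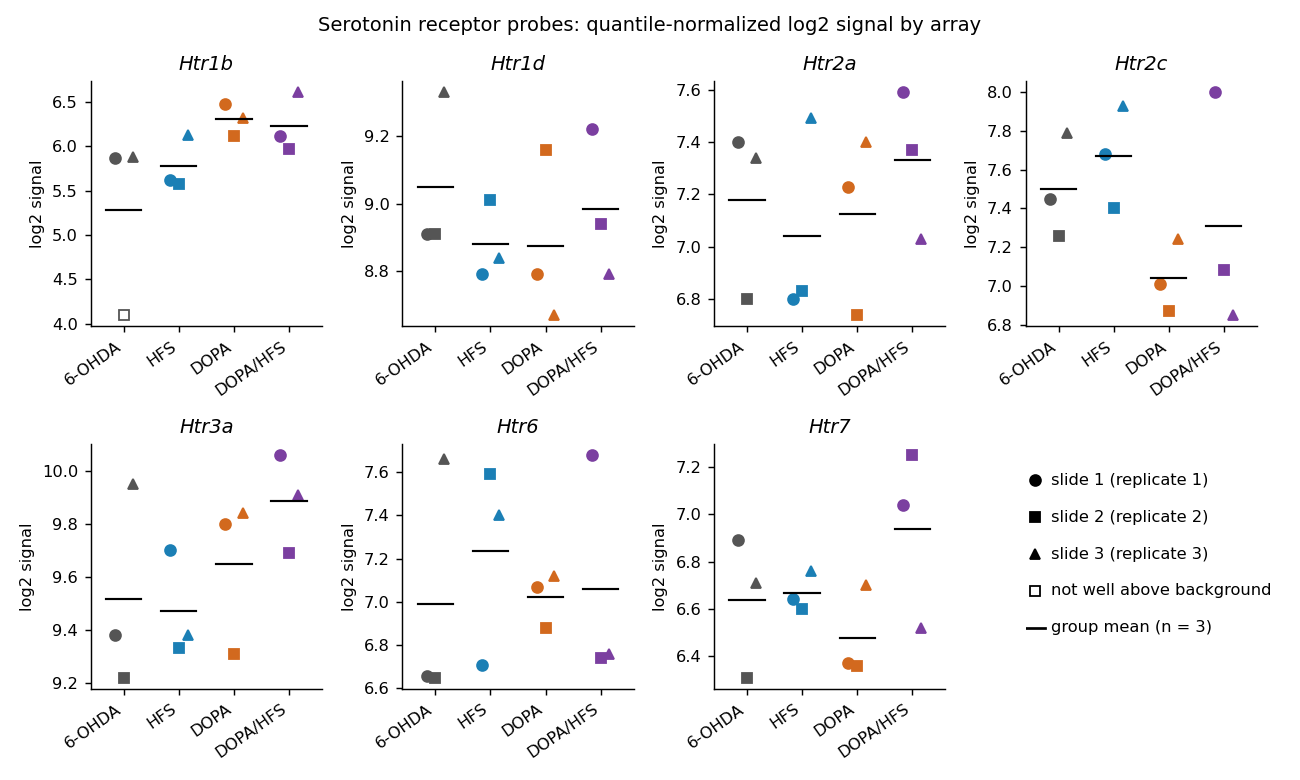
Log2 signal of the tested probe of each of the 7 receptors (vertical axes, each with its own range) on the 12 arrays in 4 groups, with the symbol giving the slide, an open symbol an array where the probe was not well above background, and a bar the mean of 3 arrays. The DOPA and DOPA/HFS arrays lie above all 6-OHDA arrays for Htr1b, and the DOPA arrays lie below all 6-OHDA arrays for Htr2c.

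Htr1d encodes another Gi-coupled receptor of axon terminals. Its log2 signal was 8.91, 8.91 and 9.33 in 6-OHDA, 8.79, 9.01 and 8.84 in HFS, 8.79, 9.16 and 8.67 in DOPA, and 9.22, 8.94 and 8.79 in DOPA/HFS. All groups overlapped, with means from 8.87 to 9.05. The SD within groups from the fit was 0.21, against a median of 0.27 over all 20405 tested genes, whereas that of Htr1b was 0.57 and exceeded that of 88.3% of them.

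Htr2c encodes a Gq-coupled receptor made by striatal and other neurons, and it is known to be abundant in the epithelium of the choroid plexus. The sequence ahead of its start, chrX:115452940-115453189 on the plus strand of GRCr8, is given because Htr2c was the other receptor whose DOPA arrays stood apart from the 6-OHDA arrays. The capitals again mark the CCAAT box on the opposite strand.

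Htr2c: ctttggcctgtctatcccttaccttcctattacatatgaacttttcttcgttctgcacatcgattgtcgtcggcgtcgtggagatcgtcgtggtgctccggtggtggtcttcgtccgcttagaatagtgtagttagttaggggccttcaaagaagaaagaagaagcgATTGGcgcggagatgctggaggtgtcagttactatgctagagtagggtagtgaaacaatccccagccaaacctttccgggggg

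RefSeq windows of this kind were found for 6 of the 10 receptors (Htr1b, Htr1d, Htr2b, Htr2c, Htr6 and Htr7). On both strands of the 250 bases, the cyclic AMP response element TGACGTCA, the shorter TGACG (which it contains), the AP-1 element TGANTCA, the CCAAT box, the GC box GGGCGG and the TATA box TATAAA were searched. CCAAT was present in 34% of the 33469 windows in the table, with 2 matches ahead of Htr1b and 1 ahead of Htr2c. Neither of these windows held any of the other motifs. The full cyclic AMP element stood in 1.59% of all windows, the shorter form in 18.2%, the AP-1 element in 6.34%, the GC box in 30.5% and the TATA box in 12.9%. Among the other receptors, Htr1d had 3 GC boxes and Htr7 had 1 copy of TGACG. Such matches describe the letters in the window only.

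The log2 signal of Htr2c was 7.45, 7.26 and 7.79 in 6-OHDA and 7.68, 7.4 and 7.93 in HFS. In DOPA it was 7.01, 6.87 and 7.24, and in DOPA/HFS 8, 7.08 and 6.85. All 3 DOPA arrays were below every 6-OHDA and every HFS array, whereas the DOPA/HFS group held both the highest and the lowest of the 12 values. The group means were 7.67 ± 0.27 in HFS, 7.5 ± 0.27 in 6-OHDA, 7.31 ± 0.61 in DOPA/HFS and 7.04 ± 0.19 in DOPA (SD, n = 3), and only the DOPA arrays did not overlap with those of 6-OHDA and HFS.

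In DOPA against 6-OHDA, Htr2c differed by −0.46 (SE 0.28, fold 0.728, 95% interval −1.08 to 0.16), with a limma p of 0.13, an adjusted p of 1 and an exact permutation p of 0.1. Within slides the differences were −0.43, −0.39 and −0.55. It is singled out here after its values were seen. Htr2c also stands in a gene list that the study drew up from these same arrays, so its direction is not independent evidence. The L-DOPA average effect was −0.41 (SE 0.2, 95% interval −0.85 to 0.03, limma p = 0.063, adjusted p = 1), with 5 of the 6 L-DOPA arrays below all 6 others and an exact permutation p of 0.0758. The first DOPA/HFS array, at 8, was the exception. Without it the L-DOPA average effect on Htr2c was −0.58 (SE 0.15), with a limma p of 0.00256 and an adjusted p of 0.522. That array is named because it went against the effect, so this p is not an independent test. Leaving it out also changed the number of all tested genes called in this comparison from 1 to 28. Pdyn was at 14.68 on that array, against 15.87 and 15.81 on the other DOPA/HFS arrays. Without the third DOPA/HFS array the effect on Htr2c was −0.29. With the normexp background correction it was −0.25.

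Because Htr2c marks the choroid plexus as well as neurons, the markers of that tissue are given beside it. The list had 10 genes with a probe, of which 2 were above background on all 12 arrays. Over the 8 with a value on every array, the log2 of the summed signal was 8.16 to 8.68 in 6-OHDA, 12.06 to 16.43 in HFS, 7.98 to 14 in DOPA and 8.26 to 9.85 in DOPA/HFS. Of the 10 genes 6 were tested. All 6 were higher in HFS than in 6-OHDA at an unadjusted limma p under 0.05, with 0 called. Among all tested genes, 2.34% reached that level in either direction. Clic6 passed the filter on dim signal with 5 of 12 arrays above background. Ttr, Sostdc1 and Aqp1 also stand in a gene list that the study drew up from these same arrays. The count for the choroid plexus list is thus not independent evidence. Ttr, the transthyretin gene that defines this epithelium, was at 6.23, 6.59 and 5.8 in 6-OHDA and at 16.3, 11.86 and 15.28 in HFS. It was at 2.41, 10.29 and 13.81 in DOPA, and at 8.28, 9.25 and 2.79 in DOPA/HFS. Where the summed signal of the list was high, as on the HFS arrays and the third DOPA array, it was thus mostly that of Ttr alone. The HFS arrays, whose marker sums were above those of all 6-OHDA arrays, had Htr2c levels of 7.4 to 7.93, against 7.26 to 7.79 in 6-OHDA, a difference of 0.17 (SE 0.28, 95% interval −0.45 to 0.79). On the 3 DOPA arrays, marker sums of 7.98, 10.57 and 14 went with Htr2c levels of 7.01, 6.87 and 7.24. On the 3 HFS arrays, sums of 16.43, 12.06 and 15.44 went with levels of 7.68, 7.4 and 7.93. In DOPA the highest sum went with the highest Htr2c level, and in HFS the lowest sum with the lowest level, while the remaining arrays stood in the opposite order. An order of 3 arrays is too short to be read further. Markers of the leptomeninges, the membranes around the brain, were mixed. Their summed log2 signal over 6 genes was 12.83 to 13.76 in HFS, against 12.39 to 12.75 in 6-OHDA, with Igf2 the brightest on every array. Of the 7 tested leptomeningeal genes, Igf2 and Igfbp2 lay above all 6-OHDA arrays with an unadjusted limma p under 0.05. Igf2 is also among the genes that the study lists as raised by stimulation on these same arrays. The differences of the 7 ran from −0.43 to 1.82, with a median of 0.23. The lowest was that of Col1a1, at 8.99, 8.66 and 8.64 in HFS and at 9.62, 8.87 and 9.1 in 6-OHDA. The part of either list in the Htr2c values was not tested.

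**Figure D3:**
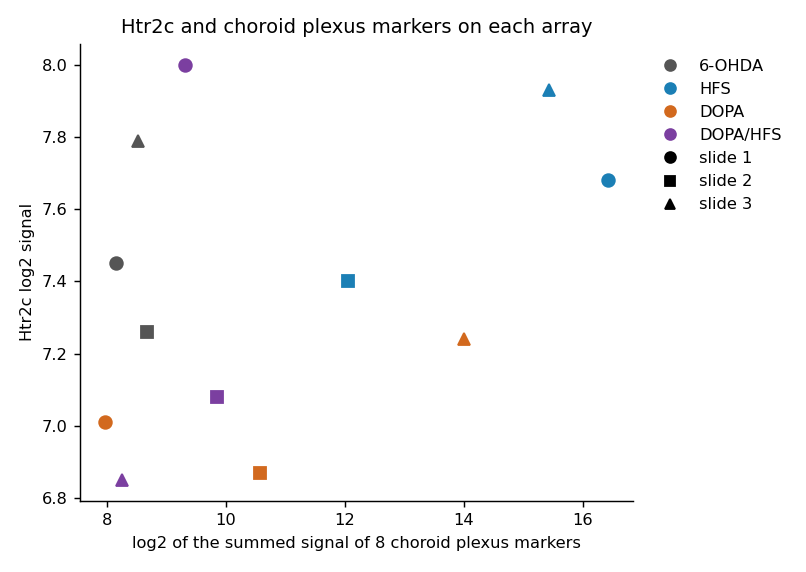
Htr2c log2 signal (vertical axis) against the log2 of the summed signal of the 8 choroid plexus markers with a value on every array (horizontal axis) on the 12 arrays, with colour giving the group and symbol the slide. The 3 HFS arrays lie at 12.06 or more on the horizontal axis, and the highest Htr2c level, 8, belongs to a DOPA/HFS array with a marker sum of 9.31. On the HFS arrays the sum is mostly the signal of Ttr.

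Htr2a, the Gq-coupled receptor of cortical and some striatal neurons, was read by 4 probes. The tested one was above background on all arrays. Its log2 signal was 7.4, 6.8 and 7.34 in 6-OHDA, 6.8, 6.83 and 7.49 in HFS, 7.23, 6.74 and 7.4 in DOPA, and 7.59, 7.37 and 7.03 in DOPA/HFS. All groups overlapped.

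A second Htr2a probe, printed on 10 spots, was above background on 8 arrays, and its level ran from 4.62 to 5.86. The order of the group means was the same for both, with DOPA/HFS first (7.33 on the tested probe and 5.27 on the second), then 6-OHDA (7.18 and 5.18), DOPA (7.12 and 5.13) and HFS (7.04 and 4.94), but every step was smaller than the SD of the 6-OHDA group (0.33 and 0.62). Over the 12 arrays the 2 probes had a Pearson correlation of 0.656 and a Spearman correlation of 0.755, which is given as a description of arrays that share slides and labelling. The other 2 probes, which refer to an alternatively spliced form, were above background on no array, with levels from 2.81 to 4.13 and from 2.39 to 4.21.

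Htr3a, whose product forms the serotonin-gated cation channel and which marks a class of cortical interneurons, was measured on all arrays. Its log2 signal was 9.38, 9.22 and 9.95 in 6-OHDA, 9.7, 9.33 and 9.38 in HFS, 9.8, 9.31 and 9.84 in DOPA, and 10.06, 9.69 and 9.91 in DOPA/HFS. The highest value was in DOPA/HFS, but the third 6-OHDA array, at 9.95, lay within the range of that group. The DOPA/HFS mean was 9.89 ± 0.19 and the 6-OHDA mean 9.52 ± 0.38 (SD, n = 3).

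Htr6 and Htr7 are the Gs-coupled receptors that could be tested, and Htr6 is known for its abundance in striatal neurons. The log2 signal of Htr6 was 6.66, 6.65 and 7.66 in 6-OHDA, 6.71, 7.59 and 7.4 in HFS, 7.07, 6.88 and 7.12 in DOPA, and 7.68, 6.74 and 6.76 in DOPA/HFS. In 6-OHDA and DOPA/HFS a single array, the third and the first respectively, lay apart above the other pair, and the 12 values spanned 1.03. The SD within groups was 0.46, larger than in 81% of the tested genes.

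The log2 signal of Htr7 was 6.89, 6.31 and 6.71 in 6-OHDA, 6.64, 6.6 and 6.76 in HFS, 6.37, 6.36 and 6.7 in DOPA, and 7.04, 7.25 and 6.52 in DOPA/HFS. The highest pair of values came from DOPA/HFS, where replicate 3 lay within the 6-OHDA range. A second Htr7 probe was above background on 3 arrays (1 of HFS and 2 of DOPA/HFS), had no value on the third DOPA/HFS array, where its spot was an outlier, and ran from 3.91 to 5.23. Without replicate 3 of DOPA/HFS, Htr7 had an unadjusted limma p under 0.05 for DOPA/HFS against 6-OHDA, for the HFS average effect (the mean of HFS and DOPA/HFS less that of 6-OHDA and DOPA) and for the interaction, with the lowest adjusted p of the receptors at 0.825.

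A gene was called in a comparison at a Benjamini-Hochberg adjusted limma p under 0.1 with a fold over 1.2 or under 0.8. None of the 7 tested receptors was called in any of the 6 comparisons. The share of all tested genes called was 0% for HFS, 0.0049% for DOPA, 0% for DOPA/HFS, 0.0049% for the L-DOPA average effect, 0% for the HFS average effect and 0% for the interaction of both treatments, that is at most 1 of 20405 genes. An unadjusted limma p under 0.05 was reached by 2.34% of all genes for HFS, 2.59% for DOPA, 2.75% for DOPA/HFS, 2.73% for the L-DOPA average effect, 4.36% for the HFS average effect and 1.98% for the interaction. Of the receptors it was reached by 1 of 7 for DOPA, DOPA/HFS and the L-DOPA average effect, which was Htr1b each time, and by 0 of 7 in the other 3 comparisons.

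Receptors were also counted by whether the arrays of a treated group overlapped with those of 6-OHDA. For HFS, 0 of 7 receptors lay wholly below or above, against 2.34% and 2.8% of all genes. For DOPA, 1 of 7 lay below (Htr2c) and 1 above (Htr1b), against 3.11% and 3.17%. For DOPA/HFS, 0 of 7 lay below and 1 above (Htr1b), against 3.02% and 2.05%.

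The log2 differences of the 7 receptors ran from −0.17 to 0.49 for HFS (median 0.03, against 0.01 for all genes). They ran from −0.46 to 1.02 for DOPA (median −0.06, against −0.01) and from −0.19 to 0.95 for DOPA/HFS (median 0.15, against −0.01). These 3 comparisons share their control arrays. For the HFS average effect they ran from −0.03 to 0.25, and for the interaction from −0.56 to 0.43.

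The 95% intervals show what 3 arrays in a group could resolve. In the comparisons with 6-OHDA they reached between 0.4 and 0.9 to either side of the difference, the narrowest being those of Htr1d and the widest those of Htr1b. All 7 intervals contained 0 for HFS, as did 6 of 7 for DOPA and for DOPA/HFS, with Htr1b outside in both. For HFS against 6-OHDA the interval of Htr1d ran from −0.58 to 0.23 and that of Htr1b from −0.41 to 1.39.

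**Figure D4:**
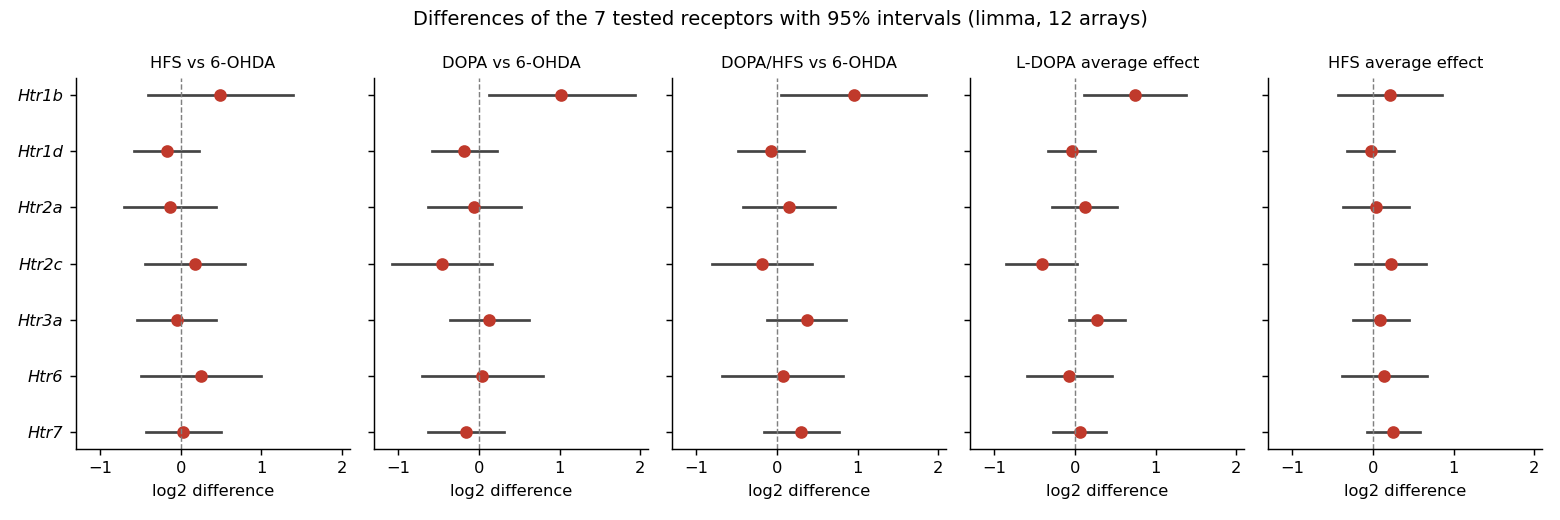
Log2 differences (horizontal axis) of the 7 tested receptors in 5 comparisons, as points with 95% intervals from limma on 12 arrays, and a dashed line at 0. The interval of Htr1b lies above 0 for DOPA, DOPA/HFS and the L-DOPA average effect, and all other intervals contain 0.

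Over the 12 arrays, 19 of the 21 pairs of tested receptors had a positive Pearson correlation, with a median of 0.34, and 20 of 21 after removal of the group means, with a median of 0.426. The highest over all arrays was 0.696, between Htr2a and Htr7, and the highest after removal of the group means was 0.724, between Htr2a and Htr2c. Htr1b and Htr2c, whose L-DOPA average effects had opposite signs, had a correlation of −0.142 over all arrays and of 0.246 after removal of the group means. The arrays share slides and labelling, so these values are descriptions. The share of positive pairs among all tested genes was not computed, so the counts cannot be set against those of other genes.

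The genes with a signal on all 12 arrays, 18357 in number, were ranked by their Pearson correlation with the 6 receptors above background on all 12 arrays, which leaves out Htr1b. The values that follow are the highest of 18357 over only 12 arrays, so they are descriptions, and no link between genes was tested. Htr6 was nearest to Plbd2 (0.964), Edn3 (0.954) and Cnp (0.95, with a Spearman correlation of 0.888), the last a gene of myelinating cells. The gene nearest to Htr1d was St6galnac3 (0.874), and those nearest to Htr3a were Bmyc (0.92) and Nit1 (0.892). Htr7 had Pla2g4a among its nearest (0.909), and the genes nearest to Htr2a and Htr2c, up to 0.971 and 0.939, carry only provisional names in the files.

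The other genes of serotonin signalling were taken from a list of 18 genes for serotonin supply and the remaining receptors, of which 17 had a probe and 10 were tested. Among the remaining receptors, Htr1f was above background on 0 of 12 arrays, Htr5b on 2, Htr3b on 3 and Htr5a on 6. Fev, the transcription factor that defines serotonin neurons, was above background on no array, and Slc6a4, the serotonin transporter, on 4. Tph2, the neuronal enzyme that starts serotonin synthesis, was above background on all 12 arrays, at 6.37 to 7.33, and Ddc, the decarboxylase shared by serotonin and dopamine synthesis, at 10.42 to 12.1. The differences of Tph2 from 6-OHDA were −0.02 for HFS, 0.18 for DOPA and 0.28 for DOPA/HFS, each with an SE of 0.21.

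Of these 10 tested genes, 0 were called in any comparison, and an unadjusted limma p under 0.05 was reached once each for Slc18a2, Qdpr and Maob. Slc18a2, the vesicular transporter of serotonin and dopamine, was at 6.1, 6.5 and 6.77 in 6-OHDA and at 5.02, 5.52 and 5.73 in DOPA, without overlap. The difference was −1.03 (SE 0.45, fold 0.49, limma adjusted p = 1, exact permutation p = 0.1), and with the normexp background correction it was −0.45. Its levels were 5.61, 5.95 and 5.85 in HFS, also below all 6-OHDA arrays, and 6.8, 4.53 and 5.52 in DOPA/HFS, which overlapped with them. Slc18a2 is also among the genes that the study lists as changed by HFS and by DOPA on these same arrays. Its direction in these groups is thus not independent evidence. The probe was dim and was above background on 11 arrays. On the third DOPA array its level of 5.73 was close to 5.71, the lowest signal counted as well above background there.

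Qdpr, which regenerates the cofactor of tryptophan hydroxylase, was at 15.58, 15.63 and 15.65 in 6-OHDA and at 15.08, 15.47 and 15.34 in DOPA/HFS, a difference of −0.33 (SE 0.14, limma adjusted p = 1, exact permutation p = 0.1). Maob, a monoamine oxidase, differed by 0.41 in the HFS average effect (SE 0.17, limma adjusted p = 0.912, exact permutation p = 0.0584), with means of 10.15 with and 9.73 without stimulation. Without the first DOPA/HFS array, the Maob difference was 0.27 and the Qdpr difference −0.22, both with an unadjusted limma p above 0.05. The median difference over the 10 genes was 0.03 for HFS, 0.12 for DOPA and 0.06 for DOPA/HFS.

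Of the 27 tested genes that couple the receptors to their second messengers (G proteins, adenylyl cyclases, phospholipases and their like), 0 were called. Only Plcb4, a phospholipase C activated by Gq, had an unadjusted limma p under 0.05, in the L-DOPA average effect, with a difference of 0.22 (SE 0.1, limma adjusted p = 1, exact permutation p = 0.013) between means of 8.71 and 8.49, which was 0.1 in the deposited log2 table. The median difference over these genes was 0.07 for HFS, 0.04 for DOPA and 0 for DOPA/HFS.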

How the data were processed

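The intensity values of each array were deposited by the authors as scanner output: the Feature Extraction software (version 9.1) had quantified every spot and subtracted the background, with no normalization between arrays. The log2 table the authors deposited, quantile normalized by them, served as an alternative. Samples were grouped by their labels.

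Control spots (1639 of 45018) and outlier spots were left out. Signals were taken to log2, quantile normalized and averaged over the spots of each of 41012 probes. Probes (24239) had to be well above background on a share of 0.4 of arrays or more. The kept probe of highest mean stood for its gene, and 20405 genes were fitted on all 12 arrays with limma 3.58.1 (lmFit, eBayes) in R 4.3.3. The fit was tested on simulated data. Of the probes, 10735 were named through RefSeq (GRCr8), which also gave the promoter windows. Single receptors were compared by exact permutation tests. With 1 array for each rat, p-values rest on the spread between the arrays of a group, in which rat, dissection, labelling and array are not separated. The main fit and the exact tests do not use the slide. The number of arrays limits the precision. The receptors and gene lists were chosen with earlier results of these data known. Values were named at an unadjusted p under 0.05, and Htr2c after its values were seen. In the marker lists, 4 genes of cholinergic interneurons, 7 of GABA interneurons, 2 of cortical neurons and 7 of microglia were tested. Of these, 0 had an unadjusted limma p under 0.05 in any comparison. With 1.98% to 4.36% of all genes at that level, lists this small say little about cell content. Of 10 tested projection neuron markers, 1 was at that level in each comparison with 6-OHDA, and 1 up and 1 down in the L-DOPA average effect. Sums over a list use its genes with a value on every array.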

Additional observations from a re-analysis of the deposited data

How the results depend on the processing

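No serotonin receptor was called under any alternative run: scaling to the 75th percentile, normexp background correction, the authors' log2 table, dim probes unfiltered or required to be above background throughout 1 group, averaging over probes, outlier spots kept, the replicate number (slide) as a block, the arrays compared only, other thresholds, and the omission of single arrays. The lowest adjusted p of a receptor was 0.522. The difference of Htr1b ranged from 0.34 to 1.32 for DOPA, from 0.22 to 1.25 for DOPA/HFS and from 0.22 to 0.89 for the L-DOPA average effect, and that of Htr2c from −0.58 to −0.31 for DOPA and from −0.58 to −0.25 for the L-DOPA average effect, with no change of direction. For Plcb4 the range was 0.1 to 0.27, for Maob 0.27 to 0.55, for Qdpr −0.42 to −0.22 and for Slc18a2 −1.21 to −0.45. Maob had an unadjusted limma p above 0.05 in the authors' table (difference 0.3), with outlier spots kept (0.32) and in several runs without a single array. The highest unadjusted limma p over the runs was above 0.05 for each named gene. It was 0.0899 for Htr1b in DOPA, 0.159 in DOPA/HFS and 0.0633 in the L-DOPA average effect. For Slc18a2 it was 0.135, for Qdpr 0.147, for Plcb4 0.417 and for Maob 0.187. With the replicate block the values for Htr1b were 1.02 for DOPA (limma adjusted p = 1) and 0.95 for DOPA/HFS (limma adjusted p = 0.928), and no receptor's call changed. Deviations of arrays from their group means correlated from −0.288 to 0.477 within slides (median 0.112) and from −0.447 to 0.542 between slides (median −0.0692), so the numbers share a slide without every pair deviating together. Without the third 6-OHDA array, Htr3a also had an unadjusted p under 0.05 for DOPA/HFS and the L-DOPA average effect, and so did Htr2b, which is above background on no array, for the L-DOPA average effect when no filter was used. With 3 arrays in a group, intervals reaching up to 0.9 to either side on the log2 scale limit what could be seen.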
